A study of Mus musculus with 2 samples.

Results

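The genes described here are 52 transcripts of G2 phase and mitosis, the members of a list in common use for scoring cells in these phases. All 52 had a column in both deposited tables, out of 18131 genes, and the rule that chose them uses no measured value. They were measured by droplet single-cell RNA sequencing in the cardiac neural crest region of C57BL/6 mouse embryos at E9.5. The dissected piece reached from the level of the mid otic placode down to that of the fourth somite. Each genotype gave 1 library. WT embryos were Prdm6+/+ and KO embryos Prdm6f/f, and the genotype of either continued as Wnt1-Cre2; ZsGreen1. Both genotypes carried the Wnt1-Cre2 transgene, which makes Cre recombinase under the Wnt1 promoter, and the ZsGreen1 reporter that Cre switches on. The full strain name that the methods give for Wnt1-Cre2 places the transgene at E2f1, itself a gene of the cell cycle, and how many copies each embryo carried is not given. In the KO embryos Cre also deletes the floxed part of Prdm6, a histone methyltransferase gene, in the Wnt1 lineage only. The labels call the cells cardiac neural crest cells, but no sort is described and cells of many lineages were captured in both libraries.

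A dividing cell first copies its DNA in S phase, then passes through G2, in which it makes the proteins that mitosis needs. Entry into mitosis is driven by the kinase Cdk1 bound to a B-type cyclin. Chromosomes are then condensed, attached through kinetochores to the spindle and held by a checkpoint until all are attached, after which the anaphase-promoting complex marks cyclin B and securin for destruction and the cell divides. Most of these genes are repressed in quiescent cells and early G1 by the DREAM complex and switched on in G2 by B-Myb and FoxM1. In the E9.5 embryo most lineages divide rapidly, whereas neurons have left the cell cycle.

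Levels are unique molecular identifiers (UMIs, counts of captured transcript molecules) per 1000000 UMIs, written CPM, of a library or of a class of cells. Ranges in parentheses are 95% intervals that cover counting error only. With 1 library per genotype no difference below has a replicate check, none was tested, and genes are described as higher or lower in these 2 libraries only. There were 11958 cells with 20781384 UMIs in WT, at a median of 1597 per cell, and 9765 cells with 18936857 UMIs in KO, at a median of 1703. Of the cell barcodes 26 occurred in both. Prdm6, the targeted gene, was at 5.00 CPM (104 UMIs) in WT and 3.12 CPM (59 UMIs) in KO, summed over all lineages, a log2 ratio of −0.68 (−1.17 to −0.21). Whether these 3′ end UMIs tell the intact from the deleted allele is not given in the sources used here. As signs of RNA quality and library make-up, the noncoding RNA Gm42418 was at 1091 CPM in WT against 2507 in KO, nucleolin (Ncl) at 2038 and 3239, Malat1 at 2976 and 2656, and Actb at 19613 and 16817. Their part in the differences below was not tested.

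The regulatory sequence that these genes are known for is shown first. Genes of late cell cycle phases often carry a cell cycle genes homology region (CHR) close to the start of transcription, to which DREAM and B-Myb complexes bind, together with 1 or more CCAAT boxes, which NF-Y binds. RefSeq windows (GRCm38.p6) matched 46 of the 52 genes by symbol. Cdc25c, Aurkb, Tpx2, Dlgap5, Smc4 and Cdca2 had no window. The 250 bases before the start were searched on both strands for TTTGAA and TTCGAA (CHR), for CCAAT, and for the E2F words TTTCCCGC, TTTGGCGC, TTCCCGCC and TTGGCGCC, which overlap among themselves. A CCAAT box read on the minus strand can overlap the last of these. A CHR word was found before 22 of the 46 genes (47.8%), against 19.6% of all 27025 genes with a window. Within the last 60 bases before the start it was found in 13 (28.3%), against 3.95% of all genes. Among the 13021 genes with a window that are also in the tables, these shares were 15.5% and 2.86%. A CCAAT box was found in 35 (76.1%, all genes 37.5%), 2 or more boxes in 26 (56.5%, all genes 11.5%), and an E2F word in 4 (8.7%, all genes 3.65%, and 6.04% of those in the tables). Of 40 other mitosis genes with a window, 40% held a CHR word (30% within the last 60 bases), 67.5% a CCAAT box and 32.5% at least 2, and 12.5% an E2F word. Of 29 S phase genes with a window, 20.7% held a CHR word (6.9% within the last 60 bases), 69% a CCAAT box and 41.4% at least 2, and 37.9% an E2F word. A word found in a window is a description of the letters and not a site.

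The last 120 bases before the start are printed for 8 genes, 5′ to 3′ on the strand of the gene, with the words above in capitals. Cdk1 and Cks1b stand for the Cdk1 module, Cdc20 and Ube2c for the anaphase-promoting complex, and Hmgb2 and Top2a for the chromosome proteins, of which Hmgb2 had most UMIs. Nusap1 and Kif23 are shown as the genes with the highest and the lowest ratio of KO over WT.
Cdk1: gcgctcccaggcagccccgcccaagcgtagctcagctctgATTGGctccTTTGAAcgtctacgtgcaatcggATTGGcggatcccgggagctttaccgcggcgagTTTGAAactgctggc
Cks1b: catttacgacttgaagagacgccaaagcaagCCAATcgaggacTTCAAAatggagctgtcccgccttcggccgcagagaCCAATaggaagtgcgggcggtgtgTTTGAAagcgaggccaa
Cdc20: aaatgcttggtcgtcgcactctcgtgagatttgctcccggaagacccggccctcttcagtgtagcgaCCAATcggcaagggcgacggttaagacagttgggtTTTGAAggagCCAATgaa
Ube2c: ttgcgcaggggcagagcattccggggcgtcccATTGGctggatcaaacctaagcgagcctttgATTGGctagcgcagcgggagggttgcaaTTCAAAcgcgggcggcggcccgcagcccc
Hmgb2: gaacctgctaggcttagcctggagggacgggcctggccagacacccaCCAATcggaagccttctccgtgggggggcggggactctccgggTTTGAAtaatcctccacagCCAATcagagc
Top2a: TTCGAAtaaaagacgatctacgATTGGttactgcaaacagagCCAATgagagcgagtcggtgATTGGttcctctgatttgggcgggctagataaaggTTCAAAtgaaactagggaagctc
Nusap1: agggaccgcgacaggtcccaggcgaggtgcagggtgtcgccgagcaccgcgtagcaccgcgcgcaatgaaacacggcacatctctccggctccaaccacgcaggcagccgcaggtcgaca
Kif23: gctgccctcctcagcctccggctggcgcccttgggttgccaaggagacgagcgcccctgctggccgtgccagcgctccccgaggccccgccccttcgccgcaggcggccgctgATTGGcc
These are chr10:69352913-69353032 (minus strand), chr3:89418292-89418411 (minus), chr4:118437344-118437463 (minus), chr2:164769809-164769928 (plus), chr8:57511723-57511842 (plus), chr11:99024190-99024309 (minus), chr2:119618178-119618297 (plus) and chr9:61946800-61946919 (minus). In the first 6 genes a CHR word lay between 10 and 30 bases before the start, with at least 1 CCAAT box farther out. The start meant here is that of the RefSeq window. The GENCODE gene bounds given below differ from it for some genes, among them Cdk1 and Ube2c, whose windows reach into the gene so bounded. The Top2a window held 6 CCAAT boxes and 4 CHR words in its 250 bases, and the Ube2c window 6 CCAAT boxes and 1 CHR word. Nusap1 had none of the words in 250 bases, and Kif23 had 1 CCAAT box and no CHR word. The 22 members with a CHR word had a median log2 ratio of 0.05 and the 24 without of 0.10, and both groups ranged on either side of 0, from −0.19 to 0.29 and from −0.29 to 0.59.

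Taken as a sum, the 52 genes held 213680 UMIs in WT and 209433 in KO. Their summed level was 10282 CPM in WT against 11060 in KO, a log2 ratio (KO over WT, as everywhere below) of 0.11 (0.10 to 0.11), or 1.08-fold. The level was uneven among the genes: Hmgb2 alone gave 14% of the UMIs, and Hmgb2, Cbx5, Cks1b, Top2a and Tmpo together 36.8%. Nek2, with 913 UMIs over both libraries, was the scarcest. Of the 52 ratios 35 were above 0 and 17 below, with a median of 0.08. Of the 10513 genes with at least 200 UMIs 39.2% were above 0 and 60.8% below, with a median of −0.06. The interval lay above 0 for 20 members and below 0 for 7, while it lay above 0 for 16.9% and below for 29.1% of all genes. At least 1.2-fold higher in KO were 8 members (15.4%), against 6.46% of all genes, and 1 member (1.92%) was at least 1.2-fold lower, against 15.9%. With the libraries scaled by a trimmed mean of log ratios (TMM) or a median of ratios, 10 or 9 members were past this fold upwards and 0 downwards. Of all genes, 10.4% were past it upwards and 10.6% downwards under TMM, and 9.99% and 10.8% under a median of ratios. Under either scaling 31 member intervals lay above 0 and 5 below, so that 86.1% of those clear of 0 were above it, against 74.1% on total UMIs. Over all genes 24.1% of intervals lay above and 19.8% below under TMM, and 23.6% and 20.4% under a median of ratios. Past 1.5-fold were 1 member upwards (0.371% of all genes) and 0 downwards (2.02%). Hmgb2, Cks1b, Cks2 and Tubb4b have close copies in the genome or gene family with which UMIs may have been shared, so their values are uncertain.

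**Figure D1:**
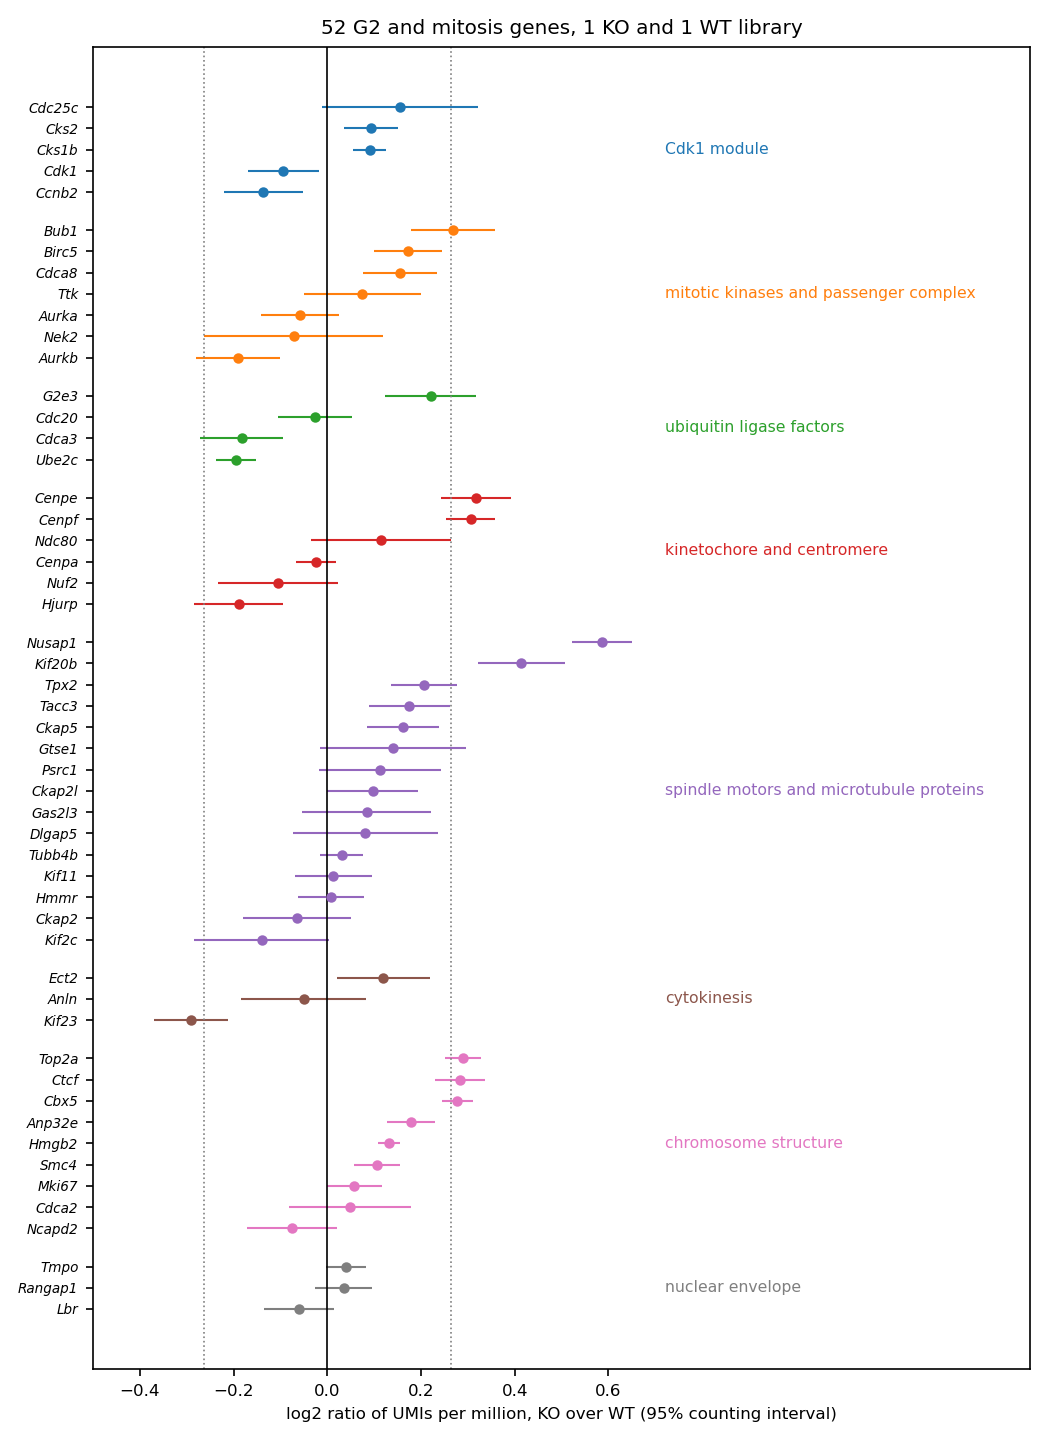
The log2 ratio, KO over WT (x axis), of each of the 52 genes (rows), in 8 colours for the groups by role, with 95% counting intervals as bars and dotted lines at 1.2-fold. Nusap1 lies farthest to the right at 0.59 and Kif23 farthest to the left at −0.29, and 8 of the 9 chromosome structure genes lie right of 0.

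The Cdk1 module comprises the mitotic kinase Cdk1, its cyclin Ccnb2, the small Cks proteins that bind Cdk complexes, and the phosphatase Cdc25c, which activates Cdk1. Ratios below 0 for the kinase and its cyclin stood beside ratios above 0 for the Cks genes. Cdk1 (chromosome 10, 69335146 to 69352938, minus strand, GRCm38) had 149 CPM in WT against 140 in KO, with a log2 ratio of −0.09 (−0.17 to −0.02). Ccnb2 was at 119 and 108 CPM, a ratio of −0.14 (−0.22 to −0.05). Under both other scalings the intervals of both held 0, at −0.03 (−0.11 to 0.04) for Cdk1 and −0.08 (−0.16 to 0.01) for Ccnb2 under TMM. Cks1b, the most abundant of the module, was at 667 and 710 CPM, with 0.09 (0.06 to 0.12), and Cks2 was at 235 and 251 CPM, with 0.09 (0.04 to 0.15). Cdc25c was scarce, at 28.3 and 31.6 CPM, and its interval held 0 (−0.01 to 0.32). The module as a sum had a ratio of 0.05 (0.02 to 0.08).

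The 7 mitotic kinases and passenger proteins also lay on both sides of 0. The chromosomal passenger complex corrects wrong attachments and is made of the kinase Aurkb with Birc5 (survivin), Cdca8 (borealin) and Incenp. Birc5 was at 145 CPM in WT against 163 in KO (0.17, 0.10 to 0.25) and Cdca8 at 126 and 140 (0.15, 0.08 to 0.23). Aurkb itself was lower, at 110 and 96.7 CPM (−0.19, −0.28 to −0.10). Bub1, a checkpoint kinase at the kinetochore, was at 93.4 and 113 CPM (0.27, 0.18 to 0.36), past 1.2-fold. Aurka, the kinase of the spindle poles, was at 123 and 118 CPM with an interval that held 0 (−0.06, −0.14 to 0.02), and its direction turned under TMM. The intervals of the checkpoint kinase Ttk (51.4 and 54.2 CPM, 0.07, −0.05 to 0.20) and the centrosome kinase Nek2 (23.5 and 22.4 CPM) also held 0.

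Of the 4 genes for factors of protein ubiquitination, 3 had a ratio below 0, with intervals below 0 for 2 of the 4 and above 0 for 1. Ube2c (chromosome 2, 164769898 to 164778822, plus strand), the ubiquitin-conjugating enzyme of the anaphase-promoting complex, was at 479 CPM in WT against 419 in KO, with 9953 and 7928 UMIs and a log2 ratio of −0.19 (−0.24 to −0.15). Cdc20, the activator of that complex, was at 132 and 130 CPM (−0.03, −0.10 to 0.05), and its direction turned under both other scalings. Cdca3, a factor for the destruction of the mitosis inhibitor Wee1, was at 114 and 100.3 CPM (−0.18, −0.27 to −0.10). The ubiquitin ligase G2e3 was at 80.5 and 93.8 CPM (0.22, 0.12 to 0.32). The summed ratio of the 4 was −0.12 (−0.15 to −0.08), and −0.06 under either other scaling.

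Among the 6 kinetochore and centromere genes, the 2 large outer proteins were higher in KO. Cenpe, a kinesin that carries chromosomes to the spindle equator, was at 130 CPM in WT against 162 in KO (0.32, 0.24 to 0.39), and Cenpf, a large coiled-coil protein, at 264 and 327 (0.31, 0.25 to 0.36). Cenpa, the histone that marks the centromere, had more UMIs than either but nearly equal levels, 453 and 446 CPM (−0.02, −0.07 to 0.02), and its direction turned under both other scalings. Hjurp, the chaperone that deposits Cenpa, was at 98.3 and 86.2 CPM (−0.19, −0.28 to −0.09). The microtubule-binding partners Ndc80 (35.6 and 38.5 CPM) and Nuf2 (52.3 and 48.6 CPM) had intervals that held 0.

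The 15 spindle genes included the largest ratio of the list. Nusap1 (chromosome 2, 119618298 to 119651244, plus strand) encodes a protein that bundles spindle microtubules around the chromosomes. It was at 166 CPM in WT (3455 UMIs) and 250 CPM in KO (4726 UMIs), a log2 ratio of 0.59 (0.52 to 0.65), or 1.50-fold. After thinning every cell to 1000 UMIs, 13.7% of WT and 20.2% of KO cells held a Nusap1 UMI. The kinesin Kif20b was at 82.1 and 109 CPM (0.41, 0.32 to 0.51). Intervals also lay above 0 for Tpx2, which activates Aurka on the spindle (151 and 175 CPM, 0.21), for Tacc3 (102 and 115 CPM, 0.17) and for Ckap5 (132 and 148 CPM, 0.16), which act together on spindle microtubules. The tubulin gene Tubb4b, at 383 and 392 CPM (0.03, −0.01 to 0.08), and Hmmr, a spindle-associated protein at 164 and 165 CPM (0.01, −0.06 to 0.08), had nearly equal levels. Kif11, the motor that separates the poles, was at 121 and 122 CPM. Gas2l3, a linker of actin and microtubules, was at 42.4 and 44.9 CPM (0.08, −0.05 to 0.22), Psrc1 at 46.4 and 50.2 CPM (0.11, −0.02 to 0.24), and the kinesin Kif2c at 42.0 and 38.1 CPM (−0.14, −0.28 to 0.00). With these 3, Ckap2, Ckap2l, Dlgap5 and Gtse1 lay between −0.14 and 0.14, all with intervals that held 0. None of the 15 had an interval below 0.

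Cytokinesis, the division of the cell body, was represented by 3 genes. Kif23 (chromosome 9, 61915905 to 61946774, minus strand), the kinesin of the centralspindlin complex at the midzone, was the only member at least 1.2-fold lower in KO, at 147 and 120 CPM with 3046 and 2269 UMIs (−0.29, −0.37 to −0.21). Its ratio was −0.23 under TMM and −0.24 under a median of ratios, short of that fold. Ect2, which centralspindlin recruits to switch on RhoA, was at 79.0 and 85.8 CPM (0.12, 0.02 to 0.22). Anln, a scaffold of the contractile ring, was at 47.4 and 45.7 CPM with an interval that held 0 (−0.05, −0.18 to 0.08), and its direction turned under both other scalings.

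The 9 chromosome structure genes had the largest summed ratio, 0.18 (0.17 to 0.20), at 3835 CPM in WT and 4350 in KO. Hmgb2 (chromosome 8, 57511907 to 57515999, plus strand), an abundant chromatin protein that bends DNA, was at 1426 and 1563 CPM (0.13, 0.11 to 0.16). Cbx5 (chromosome 15, 103191544 to 103239816, minus strand), which encodes heterochromatin protein HP1 alpha, was at 659 and 799 CPM (0.28, 0.24 to 0.31). Top2a (chromosome 11, 98992943 to 99024189, minus strand), the topoisomerase that disentangles sister chromatids, was at 506 and 618 CPM (0.29, 0.25 to 0.33). Ctcf, the insulator protein, was at 261 and 317 CPM (0.28, 0.23 to 0.34). The histone chaperone Anp32e (292 and 331 CPM, 0.18) and the condensin subunit Smc4 (321 and 345 CPM, 0.11) also had intervals above 0. Mki67, the gene of the proliferation marker Ki-67, was at 231 and 241 CPM, and its interval reached 0 (0.06, 0.00 to 0.12). The condensin subunit Ncapd2 (91.0 and 86.4 CPM) and Cdca2, a phosphatase-targeting protein of chromatin (47.7 and 49.3 CPM, 0.05, −0.08 to 0.18), had intervals that held 0.

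The 3 nuclear envelope genes, whose products are taken apart and rebuilt in mitosis, had intervals that held 0 on total UMIs. Tmpo (lamina-associated polypeptide) was at 450 CPM in WT against 462 in KO (0.04, −0.003 to 0.08). Rangap1, the activator of the Ran GTPase, was at 219 and 225 CPM (0.04, −0.03 to 0.10), and the lamin B receptor Lbr at 149 and 143 (−0.06, −0.14 to 0.01). The summed ratio was 0.02 (−0.01 to 0.05). Under both other scalings its interval lay above 0, at 0.08 (0.05 to 0.11) under TMM and 0.08 (0.04 to 0.11) under a median of ratios.

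Members that were higher in KO tended to have long, AT-rich transcripts. Over the 52 genes the log2 ratio had a Pearson r of 0.33 with the log10 length of the transcript and of −0.45 with its GC content, against 0.01 and −0.18 over 10207 genes. These are correlations across genes, which are not independent replicates, and they are given as a description. All genes were split by GC content into 3 bins of equal size. In the bin of lowest GC content lay 28 members, of which 23 were above 0, with a median of 0.11 (all genes −0.01). In the middle bin lay 17 members, with 8 above 0 and a median of −0.02 (all genes −0.04), and in the highest bin 7, with 4 above 0 and a median of 0.03 (all genes −0.11). The part of length and base composition in the differences was not tested.

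A second list, of 52 other mitosis genes that the scoring list does not hold, shows the rest of the pathway. As a sum it was at 5145 CPM in WT against 5195 in KO (0.01, 0.00 to 0.03; 0.07 under either other scaling), with a median ratio of 0.02. Of these 52 genes 5 were at least 1.2-fold higher (6.46% of all genes) and 4 at least 1.2-fold lower (15.9%). Of their intervals 16 lay above 0 (16.9% of all genes) and 18 below (29.1%). Among those with an interval below 0, Ccnb1, the main B-type cyclin, was at 211 and 171 CPM (−0.30, −0.37 to −0.23), Ccna2 at 211 and 191 (−0.14, −0.21 to −0.08), and Pkmyt1, an inhibitory kinase of Cdk1, at 21.9 and 14.6 (−0.59, −0.81 to −0.37). The kinase Plk1 was at 102 and 91.1 CPM (−0.16, −0.25 to −0.07). Higher were Sgo2a, a guardian of centromeric cohesion (65.6 and 83.9 CPM, 0.35), Aspm, a spindle pole protein (56.3 and 69.4 CPM, 0.30), and Knl1, a kinetochore scaffold (57.2 and 70.2 CPM, 0.30). The condensin subunit Ncaph had an interval below 0 (132 and 93.9 CPM, −0.49). The 41 S phase genes in the tables, of 42 listed, were at 6166 CPM in WT and 6394 in KO (0.05, 0.04 to 0.06; 0.11 under either other scaling).

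To see where in the embryo the genes were expressed, cells were assigned to classes by lineage markers, none of which is a member. A class is written X-like. Of 18 classes, 14 had at least 50 cells in each library and are described, with 3833 WT and 2580 KO cells. In 66.8% of WT and 72.4% of KO cells too few markers were seen or no single class led. These cells were shallower (median 1390 and 1486 UMIs) and stayed unclassed.

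The summed level varied little among lineages, with the highest class 1.35 times the lowest in WT and 1.40 times in KO. It was lowest in cardiac muscle-like cells, at 8433 CPM (8289 to 8579) in WT and 8589 (8413 to 8768) in KO. Next in WT came neuron-like cells at 8788 (8434 to 9153), erythroid-like cells at 8980 (8810 to 9153) and endothelial-like cells at 9200 (9023 to 9380), whose neighbouring intervals overlapped. Migrating neural crest-like, surface ectoderm-like, sclerotome and somite-like, head mesenchyme-like, pharyngeal endoderm-like, splanchnic mesoderm-like, floor plate-like and otic and epibranchial placode-like cells lay between 10051 and 10688 CPM in WT and could not be ordered within their intervals. Neural tube progenitor-like cells, at 11115 (10896 to 11338), and dorsal neural tube and roof plate-like cells, at 11376 (10878 to 11891), were highest in WT, with intervals that overlapped. In KO floor plate-like cells, at 12029 (11574 to 12497), lay above dorsal neural tube and roof plate-like cells (11855) and neural tube progenitor-like cells (11841), all within their intervals. The class levels of the 2 libraries had a Pearson r of 0.92 over the 14 classes. Neuron-like cells were at a level near that of erythroid-like cells and not near 0.

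**Figure D2:**
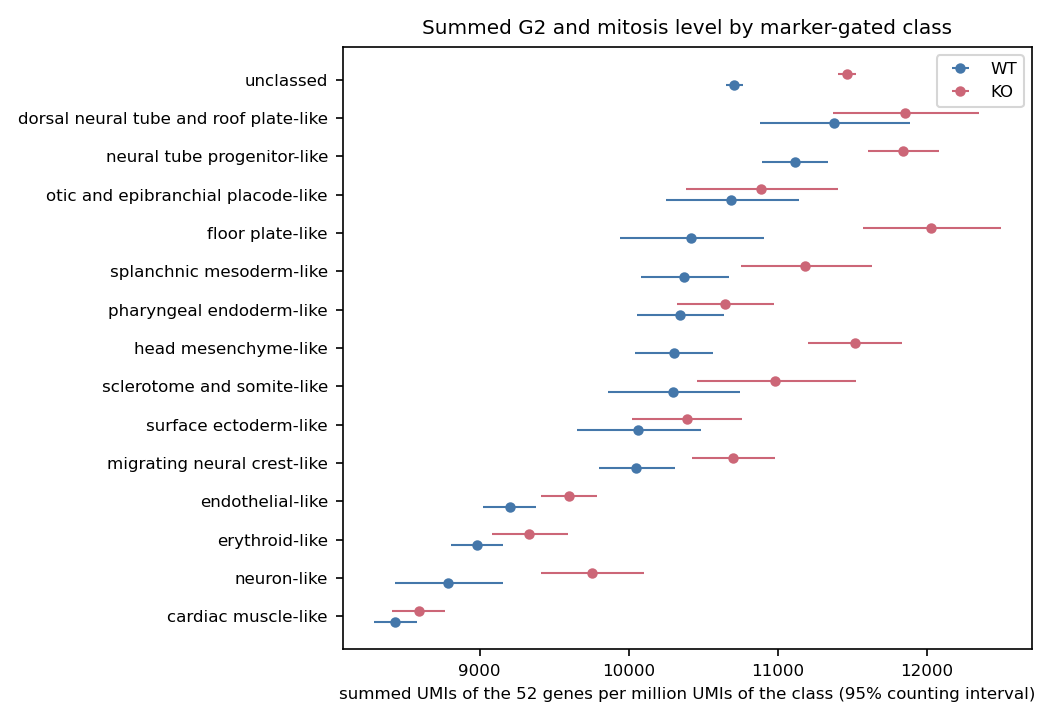
Summed level of the 52 genes in CPM (x axis, which does not start at 0) for the 14 classes and the unclassed cells (rows), WT in blue and KO in red, with 95% counting intervals. The KO point lies to the right of the WT point in every row, by most in floor plate-like cells (10417 and 12029 CPM).

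Transcripts of other lineages were also found in cells that should lack them. Hbb-y, an embryonic globin of red cells, was at 57065 CPM in WT erythroid-like cells and 58469 in KO, but a UMI of it was seen in 95.8% of the other WT cells and 85.4% of the other KO cells, at 2118 and 1067 CPM. The atrial myosin gene Myl7 was at 297 and 322 CPM outside cardiac muscle-like cells, against 7266 and 8995 within. The share of free RNA in the member UMIs of a class was not tested.

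In all 14 classes the KO level was above that of WT, and in 8 of them the interval of the ratio lay above 0. With classes as drawn here, the largest log2 ratios were those of floor plate-like cells (0.21, 0.12 to 0.29), head mesenchyme-like cells (10301 and 11516 CPM, 0.16, 0.11 to 0.21) and neuron-like cells (8788 and 9753 CPM, 0.15, 0.07 to 0.23). With classes drawn after thinning to 1000 UMIs the order was different, with neuron-like cells at 0.25, splanchnic mesoderm-like cells at 0.14, neural tube progenitor-like and pharyngeal endoderm-like cells at 0.13, head mesenchyme-like cells at 0.12 and floor plate-like cells at 0.11. Migrating neural crest-like cells, which descend from the Wnt1 lineage, were at 10051 and 10701 CPM (0.09, 0.04 to 0.14), and neural tube progenitor-like cells at 11115 and 11841 (0.09, 0.05 to 0.13). Erythroid-like cells (0.06, 0.01 to 0.10) and endothelial-like cells (0.06, 0.02 to 0.10) had lower ratios, with intervals above 0. Cardiac muscle-like cells (0.03, −0.01 to 0.07) and otic and epibranchial placode-like cells (0.03, −0.06 to 0.12) were equally close to 0. Of the 4 classes with fewer cells, arch mesenchymal neural crest-like cells (23 in WT and 33 in KO) were at 8921 and 10150 CPM (0.19, 0.03 to 0.34), pharyngeal mesoderm and second heart field-like cells (32 and 40) at 9846 and 11345 (0.20, 0.07 to 0.34), and dermomyotome-like cells (78 and 44) at 9941 and 10841 (0.13, 0.02 to 0.23). Macrophage and megakaryocyte-like cells numbered 0 and 2. The unclassed cells were at 10707 and 11467 CPM (0.10, 0.09 to 0.11). In dorsal neural tube and roof plate-like, sclerotome and somite-like and surface ectoderm-like cells the direction turned with classes so drawn (to −0.02, −0.02 and −0.10).

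Some single genes went the same way in many classes. Of the members, 19 had at least 50 UMIs over both libraries in each of the 14 classes, and 3 of these were higher in KO in all 14: Nusap1, Cbx5 and Top2a. Of the 1216 genes so measured, 6.66% were higher in all 14 classes and 4.44% lower in all. The classes of a library share its preparation and its free RNA and are not independent. The Nusap1 ratio had a median of 0.62 over the classes and ranged from 0.06 in otic and epibranchial placode-like cells to 1.40 in floor plate-like cells (131 and 347 CPM from 23 and 76 UMIs, 0.71 to 2.14), and its interval lay above 0 in 10 classes. In migrating neural crest-like cells Nusap1 was at 142 and 263 CPM from 85 and 138 UMIs (0.89, with an interval above 0). Cbx5 had a median of 0.33 and intervals above 0 in 11 classes, and Top2a a median of 0.21 and intervals above 0 in 4. Cdk1, with enough UMIs in 11 classes, was lower in KO in all 11, from −0.67 in cardiac muscle-like cells (117 and 73.3 CPM) to −0.05, and 2 of these intervals lay below 0. In otic and epibranchial placode-like cells, with 39 UMIs in all, it was higher, with an interval that held 0 (0.28, −0.70 to 1.26). Ube2c was lower in 12 of 14 classes, as were 15.3% of the 1216 genes in 12 or more, with a median of −0.32 and 6 intervals below 0. Kif23 was less uniform, lower in 9 of 13 classes and higher in 4, with 2 intervals below 0. Its largest difference was in otic and epibranchial placode-like cells (202 and 86.4 CPM, −1.23, −2.22 to −0.33). For Cdk1 and Kif23 the share of all genes with such counts was not computed.

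**Figure D3:**
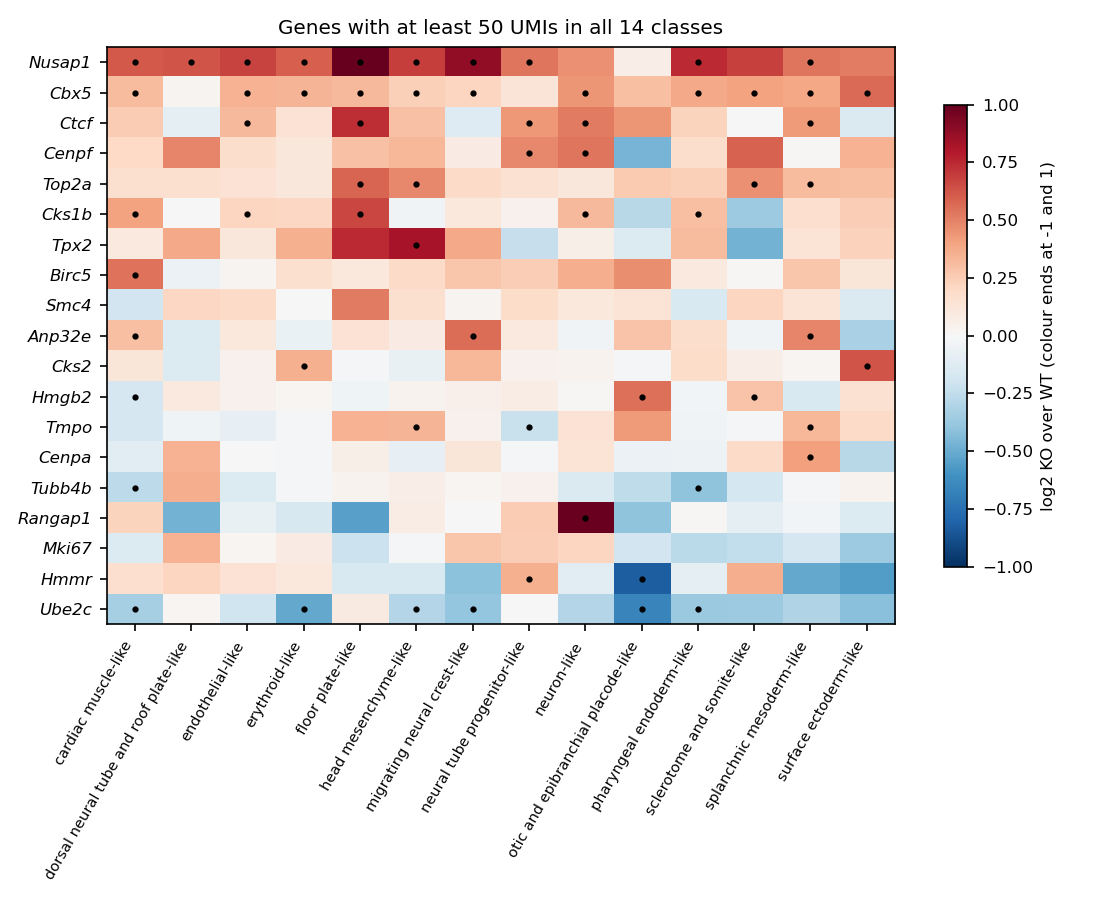
The log2 ratio, KO over WT (colour, red higher in KO), of the 19 members measured in every class (rows, ordered by their median) in the 14 classes (columns), where a dot marks a 95% counting interval that holds no 0. Nusap1 and Cbx5 are red in every column, and Ube2c is blue in 12 of 14.

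In cardiac muscle-like cells members lay on both sides of 0. Of 52 members with at least 50 UMIs there, 5 intervals lay above 0 and 6 below, against 8.02% and 10.7% of the 6970 genes so measured, and the median member ratio was −0.05. Lower were Cdk1, Aurkb (75.8 and 48.5 CPM, −0.64, −1.15 to −0.16), Ube2c (504 and 402 CPM, −0.33), Lbr (102 and 75.2, −0.43), Tubb4b (310 and 259, −0.26) and Hmgb2 (1149 and 1026, −0.16). Higher were Nusap1 (141 and 216, 0.61), Birc5 (107 and 156, 0.54), Cks1b (583 and 772, 0.40), Cbx5 (571 and 709, 0.31) and Anp32e (234 and 288, 0.30). 

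In all but 2 of the other classes more member intervals lay above 0 than below. Each count is given with the percent of all genes measured in that class whose interval lay on the same side. Head mesenchyme-like cells had 9 above (6.21%) and 2 below (5.71%) of 44 members measured, and splanchnic mesoderm-like cells 9 above (7%) and 0 below (5.99%) of 39. Floor plate-like cells had 5 above (6.15%) and 0 below (6.04%) of 27, and neuron-like cells 6 above (7.01%) and 0 below (5.38%) of 30. In these 4 classes the members' share above 0 was over 2 times that of all genes. Neural tube progenitor-like cells had 6 above (7.32%) and 3 below (7.15%) of 51, and migrating neural crest-like cells 6 above (7.36%) and 3 below (6.47%) of 46. Endothelial-like cells had 5 above (7.77%) and 3 below (7.8%) of 51, and erythroid-like cells 4 above (6.71%) and 1 below (7.83%) of 46. Sclerotome and somite-like cells had 3 above (6.72%) and 0 below (4.3%) of 24, surface ectoderm-like cells 2 above (6.64%) and 0 below (5.94%) of 29, and dorsal neural tube and roof plate-like cells 1 above (10.1%) and 0 below (5.35%) of 25. Pharyngeal endoderm-like cells had 3 above (8.34%) and 4 below (7.33%) of 40, and otic and epibranchial placode-like cells 1 above (7.94%) and 3 below (5.8%) of 24. In the unclassed cells 19 lay above (12%) and 9 below (23.3%) of 52. In head mesenchyme-like cells those above included Tpx2 (139 and 246 CPM, 0.83, 0.40 to 1.26) and Tacc3 (75.5 and 138, 0.87, 0.29 to 1.46). In neuron-like cells Rangap1 was at 121 and 241 CPM from 32 and 77 UMIs (0.99, 0.38 to 1.63).

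Single members were also compared between each class and the other cells. Of 728 pairs of gene and class, 23 pairs over 17 genes differed at least 1.5-fold from the other cells, in the same direction in both libraries and with both intervals clear of 0. Higher in the class were 7 pairs (0.96%) and lower 16 (2.2%), against 2.95% and 3.98% of the 147182 pairs of all genes with at least 200 UMIs, so that such pairs were no more frequent among the members. Gas2l3 had the largest folds among them. It was at 140 CPM in WT against 136 in KO otic and epibranchial placode-like cells, which was 3.37-fold and 3.07-fold above the other cells on 29 and 22 UMIs, and at 91.1 and 84.1 CPM in pharyngeal endoderm-like cells. In erythroid-like cells it was at 14.4 and 19.8 CPM, 3.06-fold and 2.31-fold below. Higher in dorsal neural tube and roof plate-like cells were Cks2 (417 and 379 CPM, 1.79-fold and 1.52-fold), Hmmr (290 and 337 CPM, 1.78-fold and 2.07-fold) and Nusap1 (255 and 394 CPM, 1.54-fold and 1.59-fold). Nusap1 was also higher in pharyngeal endoderm-like cells (267 and 449 CPM) and Cenpf in floor plate-like cells (405 and 497 CPM).

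Of the 16 pairs below the level of the other cells, 12 were in muscle and blood, where such pairs were most frequent over all genes too (11% and 19.6%). Lower in cardiac muscle-like cells were 7 members: Mki67 (156 CPM in WT, 142 in KO), Lbr, Cdc20 (81.6 and 81.8), Bub1 (62.3 and 73.3), Kif20b (48.8 and 56.1), Ttk (31.5 and 25.7) and Cdca2 (28.9 and 25.7). Mki67 there was 1.52-fold and 1.74-fold below the other cells. Lower in erythroid-like cells were 5: Cenpf (174 and 189 CPM), Ect2 (43.3 and 57.5), Psrc1 (24.6 and 21.6), Kif2c, which was 1.58-fold and 2.15-fold below, and Gas2l3. Psrc1 was as low in endothelial-like cells (24.3 and 22.5 CPM), and Cdc20 was low in splanchnic mesoderm-like cells (86.1 and 57.6 CPM). Neuron-like cells were low in Kif23 (83.4 and 68.8 CPM, 1.77-fold and 1.75-fold) and Aurkb (60.7 and 62.6 CPM, 1.83-fold and 1.56-fold).

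Because G2 and mitosis occupy part of the cell cycle, the genes would be looked for in a subset of cells, and the tables were examined for one. Since depth differed, 1000 UMIs were drawn from each cell. Shallower cells, 1361 in WT and 125 in KO, were set aside. The 52 genes then had a mean of 10.4 UMIs per cell in WT and 11.3 in KO, with medians of 10 and 11. The 5th and 95th percentiles were 5 and 17 UMIs in WT and 5 and 18 in KO, and the highest cells held 26 and 31. There was 1 peak and no separate group of high cells. With so few UMIs per cell a subset with a modest rise need not form a second peak, so the curve could not show one. At 20 or more UMIs were 1.44% of WT cells (1.23% to 1.69%, Clopper-Pearson) and 2.59% of KO cells (2.29% to 2.93%). Under 5 UMIs were 4.85% of WT (4.45% to 5.28%) and 2.96% of KO cells (2.63% to 3.31%). Unthinned, 34.0% and 47.6% of cells held 20 or more. The variance of the sum over cells was 1.40 times its mean in WT and 1.36 times in KO, where sampling alone would give 0.99. For the 10 cardiac muscle markers the same measure was 20.2 and 15.1, and for the S phase genes 1.28 and 1.22. Some marker lists lay below the members in both libraries. They were those of neural tube progenitors (1.37 and 1.27), otic and epibranchial placode (1.25 and 1.18), and sclerotome and somite (1.24 and 1.17). The other marker lists lay above, up to 114 and 117 for the erythroid markers.

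**Figure D4:**
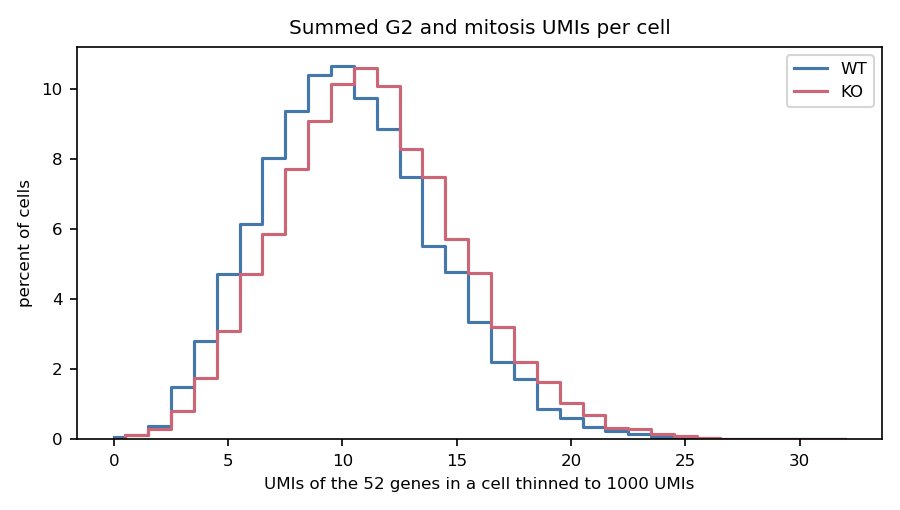
Percent of cells (y axis) by the number of UMIs of the 52 genes in a cell thinned to 1000 UMIs (x axis), WT in blue (10597 cells) and KO in red (9640 cells). Both curves have 1 peak, near 10 UMIs in WT and 11 in KO, and the KO curve lies slightly to the right.

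A second measure asked which members vary together. For each member, cells were ranked by the share of the other 51 members in their UMIs, and its level in the top 10% of cells was divided by that in the lowest 50%. The fold had a median of 1.36 in WT and 1.37 in KO, and ranged from 0.96 to 2.10 and from 0.93 to 2.16. Of the 10461 other genes with at least 200 UMIs, ranked on the whole sum, 5.77% in WT and 4.94% in KO reached the members' median. The spindle genes Gas2l3 (2.10 in WT and 2.16 in KO) and Nusap1 (1.94 and 2.08) and the kinase Nek2 (1.95 and 1.89) had the highest folds in both libraries. In cells thinned to 1000 UMIs the order was different, with Nek2 highest in WT (2.31) and Ndc80 in KO (1.88), while Gas2l3 had 1.66 and 1.67 and Nusap1 1.77 and 1.65. Unthinned, Cenpf (1.83 and 1.75), Kif23 (1.49 and 1.83), Ube2c (1.62 and 1.71) and Aurka (1.51 and 1.77) were above the median too. Cbx5 (0.96 and 0.93), Ctcf (1.04 and 1.05), and Cks1b (1.01 and 0.99) were near 1, as was Tmpo in KO (1.01) but less so in WT (1.16). Cbx5 and Ctcf are 2 of the 8 genes past 1.2-fold in KO. The lineage markers treated likewise had medians of 42.1 and 64.3 (erythroid) and 7.70 and 9.30 (neuron), and the lowest were those of the otic and epibranchial placode (1.95 and 2.02). Cells in the top 10% were shallower, with a median of 1232 UMIs in WT and 1346 in KO against 1712 and 1910 in the lowest 50%.

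**Figure D5:**
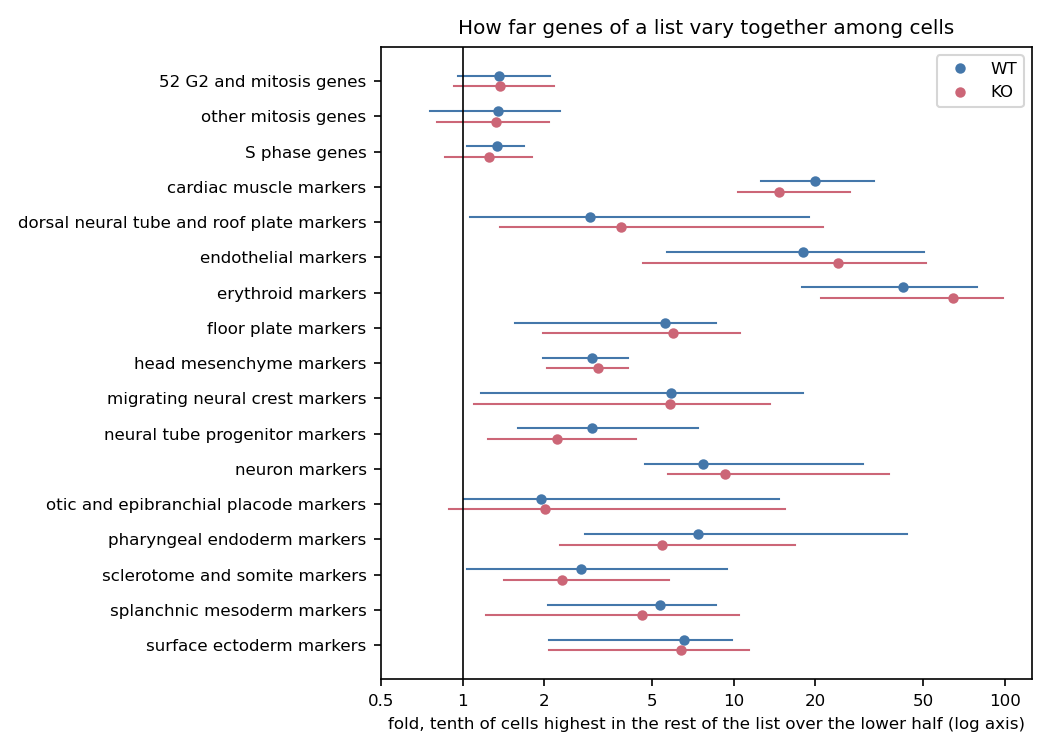
Fold between the 10% of cells highest in the rest of a list and the lowest 50% (x axis, log scale) for the 52 genes, 2 further cell cycle lists and 14 marker lists (rows), with the median over genes as a point and the range as a line, WT in blue and KO in red. The 3 cell cycle lists lie between 1.25 and 1.37 at their medians, while the medians of the marker lists lie between 1.95 and 64.3.

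The members varied together more clearly within some lineages and less within others. Among the 665 WT and 363 KO cardiac muscle-like cells, ranked within the class and over members with at least 50 UMIs there, the median fold was 1.90 and 2.59. Of 42 members measured in both libraries 16 reached 2-fold in both, against 0.457% of the 3941 other genes so measured, and 6 reached 3-fold in both, against 0.101%. These 6 were Nusap1 (5.01 and 5.31), Gas2l3 (4.81 and 3.28), Ckap2l (4.68 and 3.91), Aurka (3.90 and 5.53), Kif23 (3.84 and 3.09) and G2e3 (3.55 and 4.24). Anln, measured in WT only, reached 5.86. These folds rest on few counts, with 11 UMIs of Gas2l3 and 61 of Nusap1 in the top KO cells. Endothelial-like cells had medians of 1.55 and 1.75 and pharyngeal endoderm-like cells of 1.60 and 1.97. In endothelial-like cells Nusap1 reached 2.43 and 4.56 and Ckap2 2.79 and 4.03. Neuron-like cells had medians of 1.74 over 12 members and 1.33 over 20, and Cenpa there reached 5.36 and 2.61. In KO neuron-like cells Nusap1 was at 683 CPM in the top 10% and 68.1 in the lowest 50%, from 22 and 11 UMIs. Erythroid-like cells stayed at 1.17 and 1.23 and unclassed cells at 1.28 and 1.23. The variance over mean of the thinned sum was 1.83 and 1.84 in neuron-like cells and 1.76 and 1.94 in cardiac muscle-like cells, and 1.31 and 1.24 in unclassed cells. Floor plate-like cells had 1.42 in WT and 1.93 in KO. Pharyngeal endoderm-like cells had 1.62 and 1.79. Under 5 member UMIs were held by 16.0% of WT (13.3% to 19.1%) and 15.8% of KO cardiac muscle-like cells, and by 11.5% (6.72% to 18%) and 10.6% of neuron-like cells. Shares in WT were 9.77% (7.27% to 12.8%) in endothelial-like, 7.4% in erythroid-like and 7.34% in splanchnic mesoderm-like cells, within the interval of the neuron-like cells. In KO endothelial-like cells had 6.98%, within the interval of KO neuron-like cells (6.08% to 16.9%). Erythroid-like (5.96%) and splanchnic mesoderm-like cells (1.12%) lay below it there.

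Depth moved with this measure. In cells under 1500 UMIs the median fold was 1.14 in WT and 1.03 in KO, in cells of 1500 to under 2500 UMIs 1.41 and 1.34, and in deeper cells 1.49 and 1.68. The summed level was highest in the shallow cells. In WT it was 11114 CPM there, 9913 in the middle and 9988 in the deep cells. In KO it was 12089, 10853 and 10543. The shallow cells were mostly unclassed (85.4% and 91.2%), and the variance over mean of their sums after thinning to 1000 UMIs was 1.3 in WT and 1.10 in KO, against 1.47 and 1.60 in the deep WT and KO cells. What these shallow droplets hold was not tested.

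Cells high in S phase genes were compared in the same way. Between the top 10% and the lowest 50% by the S phase share, the median fold of the 52 members was 1.02 in WT and 1.00 in KO, and 23 and 26 of the 52 were under 1. This fold was not computed for the other genes. Whether the counts or the single values below differ from those of any gene was therefore not tested. The kinetochore gene Ndc80 was 1.46-fold higher in WT and 1.34-fold in KO, Cdc20 1.3 and 1.41, and Cdk1 1.25 and 1.23. Among the members under 1 in both libraries were Gas2l3 at 0.44 and 0.60 of its level in the others, Kif23 at 0.58 and 0.65, Nusap1 at 0.69 and 0.70, Aurka at 0.67 and 0.74, and Hmmr at 0.74 and 0.69. Of these 5, all but Hmmr had a fold with the other members above the median of the list.

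Outside the list, the 10 genes whose share followed the member sum most closely over cells, by the lower of the correlations of the 2 libraries, were Eef1a1 (Pearson r 0.20 in WT and 0.18 in KO), Npm1 (0.18 and 0.18), Hspa8, Prc1 (0.15 and 0.16), Hsp90aa1, Ran, Hspd1, Gm42418, Ubb and Arl6ip1. Of the 10, Prc1, which bundles microtubules of the spindle midzone, and Arl6ip1 are in the list of other mitosis genes. The cells share library and depth, and such r are weak in sparse counts. The members' own r with the rest of the list passed the 99th percentile of the 10461 other genes (0.06 in both libraries) for 17 members in WT and 22 in KO.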

How the data were processed

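The authors made UMI counts with Cell Ranger 1.3.1 from 10x 3′ libraries of pooled, barcoded samples, and analysed them in Scanpy. Per their methods, cells with few or very many UMIs, mitochondrial and ribosomal UMIs were removed, and doublets were excluded with DoubletFinder and a UMI limit (whether before deposit is not stated). The deposited values, of another unit than counts, are square roots of UMI counts scaled to the same total (1641) in every cell. The submitters' processing notes name mm10, while the reference in the methods is human with the reporter added and the symbols are of mouse. UMI counts were recovered by squaring and dividing by the smallest nonzero square of the cell, and 100% of nonzero values were whole within 0.01. No count model was run. CPM carry exact Poisson intervals, ratios exact conditional intervals and shares Clopper-Pearson intervals, all at 95%, for counting error only. There was 1 library per genotype and no map of cells to embryos was used. No doublet caller was run here.

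A marker was on in a cell with at least 1 UMI and over 5 times the UMIs that its mean share predicts at that depth. A cell joined the class with most markers on, at least 3 and more than any other class. These thresholds were set after the tables were seen. The members and all gene lists were chosen with earlier results of these data known. By rule, all 52 members were accounted for by role, with full values for the 3 with most UMIs in each role, those past 1.2-fold and those whose level across classes departs from that of the sum (taken as at least 1.5-fold from the other cells), and the 10 other genes of highest correlation were named. The other genes of the pathway named with values were chosen after their values were seen, as were the 1.5-fold limit for a departure, the folds within classes and depth bins, and the promoter words. The alternatives were other scalings, folds, UMI minimums, class gates and depths of thinning, and leaving out the 5% of cells with most UMIs. Coordinates are from GENCODE (GRCm38) and promoter windows from RefSeq. Scripts were tested on simulated data and run with Python 3.11.15, numpy 2.4.6, scipy 1.17.1 and matplotlib 3.10.9.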

Additional observations from a re-analysis of the deposited data

How the results depend on the processing

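No paired analysis was possible because each genotype had 1 library, and for the same reason no library could be left out. The member sum, 0.11 on the log2 scale, was 0.16 under TMM, 0.16 under a median of ratios, 0.071 without the 5 members with most UMIs, 0.083 as the median over members and 0.091 with the class weights of WT. Under a median of ratios the class ratios were 0.082 (cardiac muscle), 0.12 (endothelial), 0.11 (erythroid), 0.22 (head mesenchyme), 0.15 (migrating neural crest) and 0.15 (neural tube progenitor). With classes drawn after thinning they were 0.11 (floor plate), 0.25 (neuron), 0.13 (pharyngeal endoderm), −0.015 (sclerotome and somite) and −0.10 (surface ectoderm), and that of the dorsal neural tube turned to −0.02. The cause was not tested. Past 1.5-fold were 1 member upwards and 0 downwards, and past 1.2-fold 0 downwards under TMM and under a median of ratios. In settings chosen after seeing the data, 7 members were past 1.2-fold upwards and 1 downwards as means over cells (6.12% and 17.1% of all genes), and Kif23 was at −0.25, short of that fold, without the 5% of cells with most UMIs. Thinned to 1500 UMIs, 17.5% of WT and 24.8% of KO cells held 20 or more member UMIs and 0.78% and 0.55% under 5. Unthinned, the shares were 34.0% and 47.6%, and 0.54% and 0.10%. These shares follow from the number of UMIs kept. Depth limits the values of single members within classes, where many rest on fewer than 50 UMIs.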
